A study of Mus musculus with 20 samples.

Results

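Krt18 (keratin 18), Lmna (lamin A/C), Vim (vimentin) and Des (desmin) are the 4 intermediate filament genes of mouse muscle described here. They were chosen by name, and every probe set whose platform gene symbol was one of these names was taken. That gave 8 probe sets for 4 genes, of 10748 probe sets and 6603 genes with a single-symbol probe set on the array. Vim had 3 probe sets, Des and Lmna had 2 each, and Krt18 had 1. All 8 passed the filter on low values, a mean above 5.88 on the log2 scale, but Krt18 did so through SOD1 gastrocnemius, since its mean over the other 16 arrays was 5.84. No probe set annotated with several genes named a member.

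RNA was measured on 20 Affymetrix arrays, 1 muscle sample each, from female C57BL/6 mice aged 14 weeks, in 5 groups of 4. The first group was gastrocnemius, a hind limb calf muscle, from mice carrying a mutant human superoxide dismutase 1 transgene (SOD1G93A, written SOD1 below), a model of amyotrophic lateral sclerosis, at the symptomatic stage. The second was gastrocnemius from nerve-crushed mice, in which the sciatic nerve had been compressed for 30 s at 12 weeks and the muscle taken 2 weeks later, as a control for denervation. The third was gastrocnemius from non-transgenic (NTg) mice. The others were triceps, a fore limb muscle, from SOD1 mice and from NTg mice. The labels do not say which genotype was crushed, no sham-operated group was analysed, and no replicate number is tied to a mouse. The samples are called biological replicates without naming the animals, so the p-values measure only the spread between these samples.

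Intermediate filaments are ropes of coiled-coil proteins that give cells their resistance to stretch. Desmin is the main filament protein of mature skeletal muscle and ties neighbouring Z-discs, the anchors of the contractile units, to each other and to the cell membrane. Vimentin is the filament of fibroblasts, endothelium, macrophages and immature muscle cells. Keratin 18 is a type I keratin of simple epithelia and forms filaments only as a pair with a type II keratin, usually keratin 8. Lamins A and C, both made from Lmna, form the meshwork under the inner nuclear membrane, and mutations of LMNA and DES in humans cause muscle disease.

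Promoter windows of the members are shown so that the 4 genes can be set side by side. Each sequence runs 5′ to 3′ on the strand of the gene, covers 250 bases before and 50 after an annotated start (RefSeq, GRCm38.p6), and has in capitals the matches to the motifs searched on both strands. The windows are chr15:102027966-102028265 (plus strand) for Krt18, chr3:88503303-88503602 (minus strand) for a start of Lmna, chr2:13574061-13574360 (plus strand) for Vim and chr1:75360042-75360341 (plus strand) for Des.
Krt18: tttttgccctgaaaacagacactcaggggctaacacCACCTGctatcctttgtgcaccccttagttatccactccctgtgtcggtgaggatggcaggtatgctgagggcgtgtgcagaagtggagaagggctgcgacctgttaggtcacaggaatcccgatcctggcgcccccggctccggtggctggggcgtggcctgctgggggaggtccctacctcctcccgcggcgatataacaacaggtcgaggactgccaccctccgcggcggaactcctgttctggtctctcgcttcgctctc
Lmna: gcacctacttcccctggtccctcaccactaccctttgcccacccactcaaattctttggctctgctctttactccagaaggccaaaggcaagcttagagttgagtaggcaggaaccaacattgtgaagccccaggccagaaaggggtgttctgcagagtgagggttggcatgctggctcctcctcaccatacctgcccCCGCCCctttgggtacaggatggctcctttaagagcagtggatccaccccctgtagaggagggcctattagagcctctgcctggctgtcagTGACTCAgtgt
Vim: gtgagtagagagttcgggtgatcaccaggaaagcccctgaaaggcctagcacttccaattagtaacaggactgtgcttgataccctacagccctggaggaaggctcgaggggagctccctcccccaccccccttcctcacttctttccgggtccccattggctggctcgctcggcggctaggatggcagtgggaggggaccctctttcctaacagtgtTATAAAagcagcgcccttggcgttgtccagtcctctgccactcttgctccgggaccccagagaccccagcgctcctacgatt
Des: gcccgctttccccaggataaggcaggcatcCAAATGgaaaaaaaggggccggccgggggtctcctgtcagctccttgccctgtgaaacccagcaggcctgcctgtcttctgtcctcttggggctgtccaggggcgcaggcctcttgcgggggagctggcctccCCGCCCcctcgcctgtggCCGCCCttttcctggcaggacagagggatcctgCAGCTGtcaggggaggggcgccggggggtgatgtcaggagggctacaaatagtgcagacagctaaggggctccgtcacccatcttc
The Krt18 window held 1 E-box (CANNTG, the element bound by myogenic factors), starting 214 bases before the start, and the Des window held 2, at 220 and 36 bases before it. E-boxes occurred in 72.3% of the 32851 promoters in the table. The Lmna window held a GC box (GGGCGG, in 35.7% of promoters) and an AP-1 site (TGANTCA, in 7.81%), and the Des window held 2 GC boxes. A TATA box (TATAAA, in 13.6% of promoters) stood 32 bases before the Vim start. CArG boxes and MEF2 sites, present in 1.63% and 3.19% of promoters, were not found in these windows. A second annotated Lmna window, chr3:88493263-88493562, held no match to any of the 6 motifs. Both Lmna starts lie inside the annotated gene, 6580 and 16620 bases from its 5′ end, so neither window is the sequence before the gene's outermost start.

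By position (GRCm38.p6), Krt18 lies at chr15:102028216-102032026, Lmna at chr3:88481148-88509932, Vim at chr2:13574311-13582826 and Des at chr1:75360292-75368579. All levels below are deposited log2 signals of the microarray software MAS5, on which 1 unit is a doubling, and signals of different probe sets are not set against each other. A probe set was called changed at an adjusted p under 0.05 from limma, fitted to all 20 arrays and adjusted by Benjamini-Hochberg over the 7523 probe sets that passed the filter.

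Array medians lay between 6.61 and 6.76. Crush replicate 4 stood apart from the other crush arrays: its median correlation with its own group across probe sets was 0.905, against 0.974 to 0.976 for the other 3, and limma's array weights gave it 0.193. SOD1 triceps replicate 4 had the next lowest median correlation, 0.924. Changes of the members without these arrays are given beside the values that they moved most. As a check of the tissue, all 10 muscle fibre markers listed were on the array and limma called 0 of them in the comparisons against NTg (at an unadjusted p under 0.05, 0 in either gastrocnemius comparison and 6 lower in SOD1 triceps). Of all tested probe sets, 29.5% reached that unadjusted threshold in SOD1 gastrocnemius, 20.7% after crush and 15.2% in SOD1 triceps. The summed linear signal of the fibre markers was 38288 to 67506 in SOD1 gastrocnemius, 39765 to 72840 after crush and 44439 to 66269 in NTg gastrocnemius. The 38288 was SOD1 gastrocnemius replicate 4, and the other arrays of that group lay between 58806 and 67506. In triceps the sum was 24999 to 44381 in SOD1 mice and 35358 to 76044 in NTg mice. There 0 of the 10 markers were higher in SOD1, with a median change of -0.62. In whole muscle, a larger share of cells of one type and more RNA per cell cannot be told apart.

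In gastrocnemius, the SOD1 arrays carried far more Krt18 signal and more Lmna signal than the NTg arrays, while Vim, with differences of 0.44 to 0.47, and Des did not pass the test. After nerve crush, 1 of the 3 Vim probe sets passed the test, and Krt18 and Lmna did not. In triceps no member passed it. In numbers, 3 of the 8 probe sets (Krt18 and both of Lmna) rose in SOD1 gastrocnemius, where 5.97% of all tested probe sets were called higher and 12% in either direction. Krt18 had passed the filter through that same group, and the others belong to a single gene, so the count is a description only. After crush 1 of 8 rose, where 1.08% were called higher and 4.13% in either direction. In SOD1 triceps 0 of 8 were called, against 0.239% of all tested probe sets; 1 of the 8, Lmna 1421654_a_at, had an unadjusted p under 0.05 there, a share near the 15.2% of all tested probe sets.

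**Figure D1:**
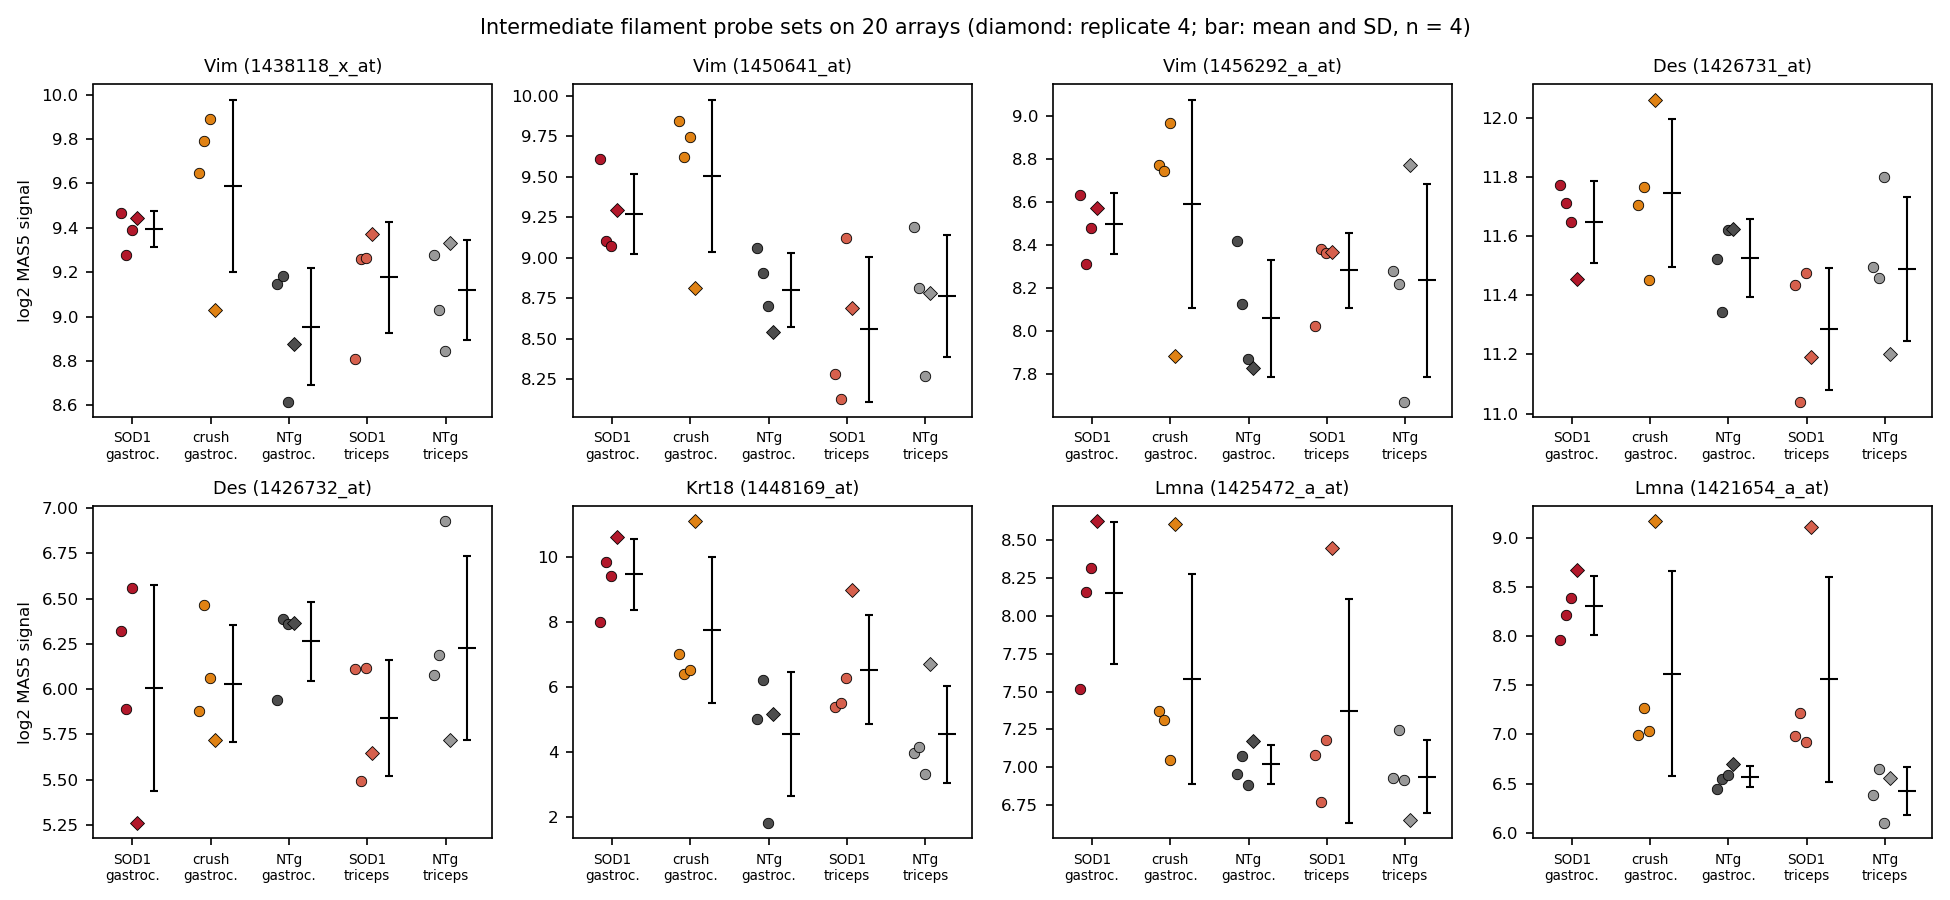
Log2 MAS5 signal (vertical axis, scaled separately per panel) of each of the 8 probe sets in the 20 arrays, by group along the horizontal axis; points are arrays, diamonds replicate 4, and bars the mean and SD of 4. The SOD1 gastrocnemius points lie above all NTg gastrocnemius points for Krt18, both Lmna probe sets and 2 of the 3 Vim probe sets, as they do for 12.7% of all tested probe sets, and crush replicate 4 is the highest crush array for Krt18 and Lmna and the lowest for Vim.

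Krt18 (1448169_at) showed the widest range of the members, 9.30 log2 units over the 20 arrays. Its signals were 7.99, 9.83, 9.42 and 10.61 in SOD1 gastrocnemius, 7.01, 6.39, 6.52 and 11.10 after crush, and 5.01, 6.20, 1.80 and 5.16 in NTg gastrocnemius. Every SOD1 array was above every NTg array, as for 12.7% of all tested probe sets, and so was every crush array, as for 6.94%. Crush replicate 4 was higher than any SOD1 array and the other 3 were below all of them. Within their own arrays, these signals ranked between the 76.7th and 96.2nd percentile of all probe sets in SOD1 gastrocnemius, and between the 0.24th and 37.5th percentile in NTg gastrocnemius. The group means were 9.46 ± 1.10 in SOD1, 7.75 ± 2.25 after crush and 4.54 ± 1.90 in NTg gastrocnemius (SD, n = 4 each).

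The rise in SOD1 gastrocnemius over NTg was 4.92 log2 units (SE 1.06, 95% interval 2.70 to 7.15, adjusted p = 0.00876), and with no filter its adjusted p was 0.00983. Krt18 was dim in NTg muscle and passed the filter through the groups where it was high, so the size of the difference is uncertain and no fold is given. NTg replicate 3 lay near the bottom of its array: without that array the change was 4.01 (adjusted p = 0.032), the smallest among the fits that left out 1 array, and without NTg replicate 2 it was 5.48, the largest. The call held in each of the 27 alternatives in which Krt18 was tested. The crush difference was 3.21 (SE 1.06, adjusted p = 0.0918) and shrank to 2.10 (adjusted p = 0.212) without crush replicate 4 and to 2.30 (adjusted p = 0.259) without NTg replicate 3. SOD1 over crush differed by 1.71 (95% interval -0.51 to 3.93, adjusted p = 0.524), or 2.83 (adjusted p = 0.0726) without crush replicate 4.

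In triceps, Krt18 read 5.37, 5.50, 6.26 and 8.98 in SOD1 mice against 3.98, 4.15, 3.31 and 6.71 in NTg mice. The groups overlapped, and replicate 4 was the highest array in both. The difference was 1.99 (SE 1.06, adjusted p = 0.368), and it was 1.17 (adjusted p = 0.773) without SOD1 replicate 4 and 2.72 (adjusted p = 0.191) without NTg replicate 4. The SOD1 effect in gastrocnemius exceeded that in triceps by 2.93 log2 units (95% interval -0.21 to 6.07), which did not pass the test (adjusted p = 0.557). The group means ran, high to low, through SOD1 gastrocnemius, crushed gastrocnemius, SOD1 triceps (6.53 ± 1.68), NTg gastrocnemius and NTg triceps (4.53 ± 1.49), and the arrays of each pair of neighbours in this order overlapped.

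Krt8 (1420647_a_at), the type II keratin that pairs with keratin 18 in simple epithelia, lies at chr15:101996711-102004342, 23874 bases from Krt18. Its signals were 6.07, 7.71, 7.20 and 9.52 in SOD1 gastrocnemius, 6.00, 6.49, 6.43 and 9.29 after crush, and 5.11, 5.81, 5.17 and 5.13 in NTg gastrocnemius. The SOD1 and crush arrays were all above the NTg arrays, and replicate 4 was the highest in both groups. Krt8 rose by 2.32 log2 units in SOD1 over NTg gastrocnemius (SE 0.72, adjusted p = 0.0415). That call did not survive leaving out any 1 of the 4 NTg gastrocnemius arrays or SOD1 replicate 2, 3 or 4, with changes of 1.69 to 2.49 and adjusted p between 0.0661 and 0.173. After crush the difference was 1.74 (adjusted p = 0.171), and 0.999 (adjusted p = 0.412) without crush replicate 4. Like Krt18, Krt8 passed the filter through SOD1 gastrocnemius, with a mean of 5.69 over the other 16 arrays. In triceps Krt8 read 5.30, 5.05, 5.40 and 6.58 in SOD1 mice against 3.71, 3.66, 5.52 and 6.41 in NTg mice, a difference of 0.76 (adjusted p = 0.611), or 0.42 (adjusted p = 0.893) without SOD1 replicate 4.

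**Figure D2:**
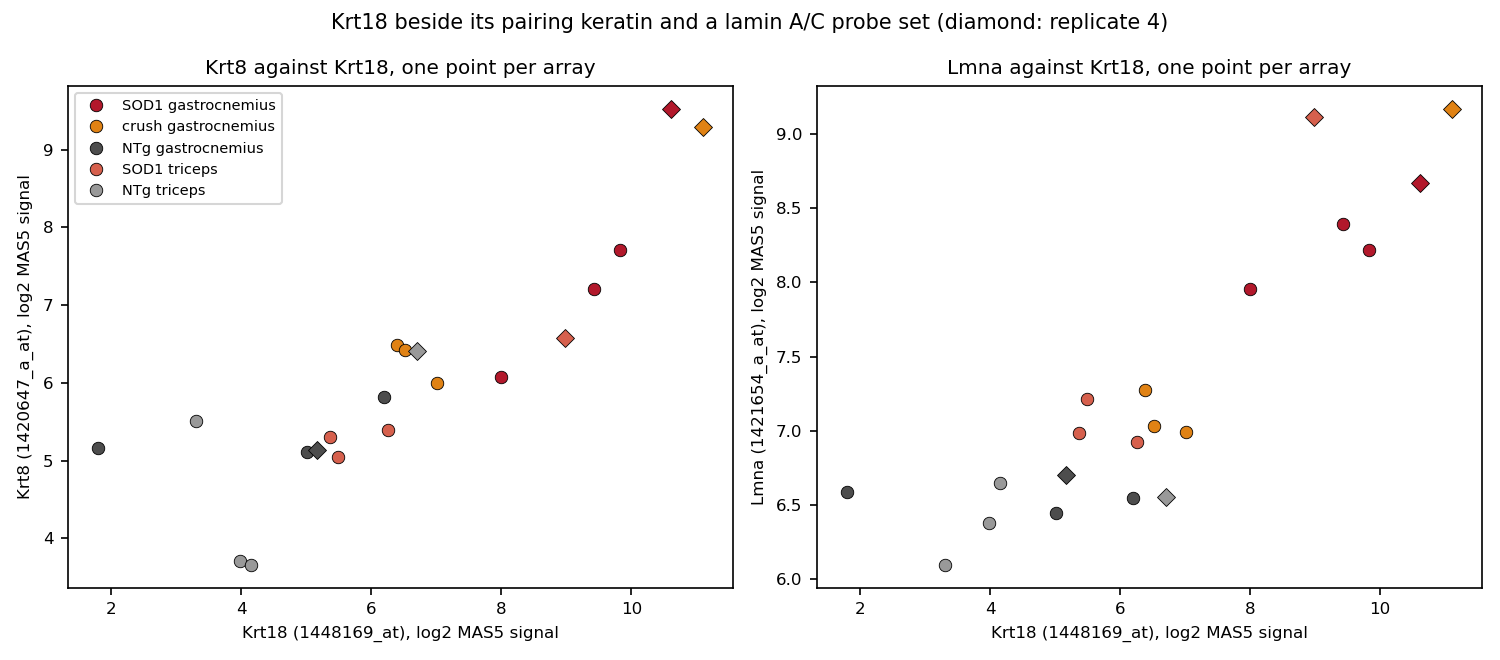
Log2 MAS5 signal of Krt8 (left) and of Lmna 1421654_a_at (right) on the vertical axes against Krt18 on the horizontal axis, 1 point per array, coloured by group, with replicate 4 as a diamond. Crush replicate 4 and SOD1 gastrocnemius replicates 2 to 4 lie to the upper right in both panels, SOD1 gastrocnemius replicate 1 lies lower for Krt8 at 6.07, and SOD1 triceps replicate 4, at 8.98 for Krt18, reads 9.11 for Lmna and 6.58 for Krt8.

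Of 12 epithelial markers listed, 3 were on the array, Krt8, Krt5 and Elf3, and none of the 3 was at 0. Their summed linear signal was 256 to 866 in SOD1 gastrocnemius, 150 to 750 after crush and 124 to 261 in NTg gastrocnemius, with replicate 4 the highest in SOD1 and crush. Krt8 is itself part of this sum, so the sum is no separate measure of epithelium beside Krt8. Krt5, a keratin of stratified epithelia, differed by 0.06 in SOD1 over NTg gastrocnemius (adjusted p = 0.957), and Elf3 did not pass the filter. Of the listed markers of satellite and regenerating muscle cells, 8 were on the array and 3 were tested. Myod1 (2.13, adjusted p = 0.0273) and Myog (3.24, adjusted p = 0.00634), transcription factors of muscle differentiation, rose in SOD1 gastrocnemius. There 5.97% of all tested probe sets were called higher. Cdh15, a muscle cadherin, differed by -0.16 (adjusted p = 0.585). Without SOD1 gastrocnemius replicate 4, Myod1 lost its call (1.94, adjusted p = 0.0996) and Myog kept it. The list's summed linear signal was 804 to 2551 in SOD1 gastrocnemius, 392 to 505 in crush replicates 1 to 3 and 2462 in crush replicate 4, and 344 to 382 in NTg gastrocnemius. In triceps it was 548 to 594 in SOD1 replicates 1 to 3 and 2937 in replicate 4, against 296 to 403 in NTg mice. The lowest NTg triceps sum was that of replicate 4, the array with the highest Krt18 and Krt8 of that group. The part of these cell types in the Krt18 and Krt8 signals was not tested.

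Lmna rose in SOD1 gastrocnemius by both of its probe sets. Probe set 1421654_a_at read 7.96, 8.22, 8.39 and 8.67 in SOD1 gastrocnemius, 6.99, 7.27, 7.03 and 9.17 after crush, and 6.44, 6.55, 6.59 and 6.70 in NTg gastrocnemius. All SOD1 and all crush arrays lay above all NTg arrays, which themselves lay close together. The rise in SOD1 over NTg was 1.74 (SE 0.43, 3.33-fold, adjusted p = 0.0162), and it was 1.62 (adjusted p = 0.0664) without SOD1 replicate 4. The difference after crush was 1.04 (adjusted p = 0.167), and 0.53 (adjusted p = 0.421) without crush replicate 4.

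The other Lmna probe set, 1425472_a_at, read 7.51, 8.16, 8.32 and 8.63 in SOD1 gastrocnemius, 7.37, 7.31, 7.05 and 8.61 after crush, and 6.96, 7.07, 6.88 and 7.17 in NTg gastrocnemius. The SOD1 arrays again lay above the NTg arrays, and the crush arrays overlapped them. The rise in SOD1 over NTg was 1.13 (SE 0.33, 2.19-fold, adjusted p = 0.0307). It lost its call in the 7 fits that left out an NTg gastrocnemius array or SOD1 replicate 2, 3 or 4, with changes between 0.98 and 1.18 and adjusted p between 0.0593 and 0.119. The crush difference was 0.56 (adjusted p = 0.343), and 0.22 (adjusted p = 0.729) without crush replicate 4. Centred on their own means, the 2 Lmna probe sets differed by a root mean square of 0.40 log2 units over the 20 arrays.

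SOD1 and crushed gastrocnemius were not separated by the test for Lmna: SOD1 over crush was 0.69 (95% interval -0.20 to 1.58, adjusted p = 0.518) at 1421654_a_at and 0.57 (95% interval -0.11 to 1.25, adjusted p = 0.48) at 1425472_a_at. In that comparison 0% of all tested probe sets were called by limma, with 940 at an unadjusted p under 0.05. Without crush replicate 4 the first became 1.21 (adjusted p = 0.0399) and the second 0.91 (adjusted p = 0.0605), and 604 probe sets were called.

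In triceps, 1421654_a_at read 6.98, 7.21, 6.93 and 9.11 in SOD1 mice against 6.38, 6.65, 6.10 and 6.56 in NTg mice. The groups did not overlap, as for 4.69% of all tested probe sets in that direction, and SOD1 replicate 4 stood far above the other 3. The difference of 1.14 (adjusted p = 0.238) became 0.62 (adjusted p = 0.654) without that array. At 1425472_a_at the SOD1 triceps arrays read 7.08, 6.77, 7.18 and 8.45, against 6.93, 7.25, 6.92 and 6.65 in NTg triceps, a difference of 0.44 (adjusted p = 0.516) that became 0.07 without SOD1 replicate 4. The gastrocnemius effect minus the triceps effect was 0.60 (95% interval -0.66 to 1.86, adjusted p = 0.771) at 1421654_a_at and 0.70 (95% interval -0.27 to 1.66, adjusted p = 0.662) at 1425472_a_at. Without SOD1 triceps replicate 4 these were 1.12 (adjusted p = 0.294) and 1.06 (adjusted p = 0.229). By group means, both probe sets followed the same order as Krt18.

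**Figure D3:**
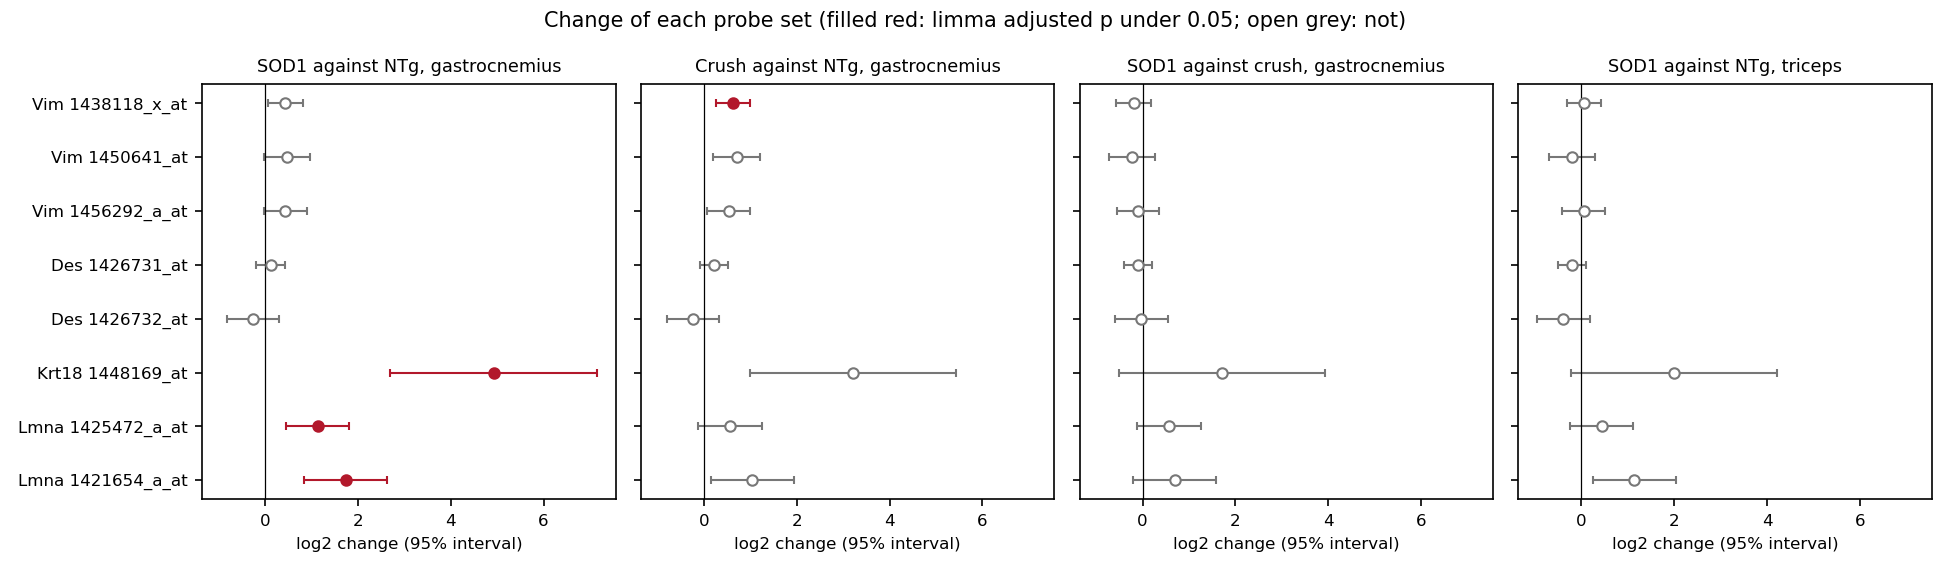
Log2 change with its 95% interval (horizontal axis) of each probe set (vertical axis) in 4 comparisons, filled red where limma's adjusted p was under 0.05. Krt18 stands at 4.92 and Lmna at 1.74 and 1.13 for SOD1 against NTg gastrocnemius, 1 Vim probe set is filled after crush at 0.64, and no probe set is filled for SOD1 against crush or in triceps.

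Vim rose after crush by 1 of its 3 probe sets, and in each of the 3 probe sets 3 of the 4 crush arrays lay above every NTg array. Probe set 1438118_x_at read 9.47, 9.28, 9.39 and 9.44 in SOD1 gastrocnemius, 9.65, 9.79, 9.89 and 9.03 after crush, and 9.15, 9.18, 8.62 and 8.88 in NTg gastrocnemius. Crush replicates 1 to 3 lay above every SOD1 array and replicate 4 lay within the NTg range. The rise after crush was 0.64 (SE 0.18, 1.55-fold, adjusted p = 0.0466), close to the threshold: it was called in 9 of 28 alternatives, and it was 0.82 (adjusted p = 0.006) without crush replicate 4. The suffix x of this probe set marks, by the maker's naming, probes that may also match other transcripts.

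The call after crush did not survive leaving out any 1 of crush replicates 1 to 3, with changes of 0.53 to 0.62 and adjusted p between 0.0977 and 0.125. Nor did it survive leaving out any 1 of the NTg gastrocnemius arrays, with changes of 0.52 to 0.71 and adjusted p between 0.0607 and 0.152. Leaving out SOD1 gastrocnemius replicate 1, 2, 3 or 4, NTg triceps replicate 1 or 2, or SOD1 triceps replicate 2 or 3, which are not part of the comparison, kept the change at 0.64 with adjusted p between 0.0509 and 0.0595.

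The other Vim probe sets had the same pattern over the crush arrays. Probe set 1450641_at read 9.61, 9.10, 9.07 and 9.29 in SOD1 gastrocnemius, 9.85, 9.62, 9.75 and 8.81 after crush, and 9.06, 8.90, 8.70 and 8.54 in NTg gastrocnemius. Probe set 1456292_a_at read 8.63, 8.31, 8.48 and 8.57 in SOD1 gastrocnemius, 8.77, 8.75, 8.97 and 7.88 after crush, and 8.42, 8.13, 7.87 and 7.83 in NTg gastrocnemius. In both, crush replicate 4 was the lowest crush array by more than 0.8 log2 units and fell within the NTg range. The crush differences were 0.71 (adjusted p = 0.0969) and 0.53 (adjusted p = 0.168), and without crush replicate 4 they were 0.94 (adjusted p = 0.0191) and 0.77 (adjusted p = 0.0258).

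In SOD1 over NTg gastrocnemius the 3 Vim probe sets differed by 0.44, 0.47 and 0.44, in the order above, with adjusted p of 0.104, 0.195 and 0.186. At 1438118_x_at and 1450641_at no SOD1 array overlapped an NTg array, and at 1456292_a_at SOD1 replicate 2 lay below NTg replicate 1. A fit on the 8 compared arrays alone called all 3, with adjusted p of 0.0285, 0.0375 and 0.0399. Without crush replicate 4, which is not part of that comparison, 1438118_x_at was also called (0.44, adjusted p = 0.0394). SOD1 over crush differed by -0.20, -0.24 and -0.09 (adjusted p = 0.664, 0.698 and 0.889), and without crush replicate 4 by -0.38, -0.47 and -0.33 (adjusted p = 0.128, 0.191 and 0.293).

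In triceps, Vim 1438118_x_at read 8.81, 9.26, 9.26 and 9.37 in SOD1 mice against 9.28, 9.03, 8.84 and 9.33 in NTg mice, and the groups overlapped. Probe set 1450641_at read 8.28, 8.13, 9.12 and 8.69 in SOD1 mice against 9.19, 8.81, 8.27 and 8.78 in NTg mice. Probe set 1456292_a_at read 8.02, 8.38, 8.36 and 8.37 in SOD1 mice against 8.28, 8.22, 7.67 and 8.77 in NTg mice. Their differences were 0.06 (95% interval -0.31 to 0.43), -0.21 (95% interval -0.70 to 0.29) and 0.05 (95% interval -0.41 to 0.50), with adjusted p of 0.891, 0.675 and 0.927. In every Vim probe set the crush group had the highest mean and SOD1 gastrocnemius the next, and the arrays of these neighbours overlapped.

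Markers of cell types that make vimentin were summed over the same arrays. Macrophage markers had a summed linear signal of 1690 to 2463 in SOD1 gastrocnemius, 1032 to 1621 after crush and 920 to 1170 in NTg gastrocnemius; 13 of 15 listed were on the array, 10 were tested, and 7 rose in SOD1 gastrocnemius, where 5.97% of all tested probe sets were called higher, with 0 called by limma after crush, where 2 were higher at an unadjusted p under 0.05. Without SOD1 gastrocnemius replicate 4, 2 of the 7, Lgals3 and C1qb, were still called. Of 10 fibroblast markers tested, limma called 0 in either comparison, with 2 higher in SOD1 and 2 higher and 1 lower after crush at an unadjusted p under 0.05. Of all tested probe sets, 29.5% reached that threshold in SOD1 gastrocnemius and 20.7% after crush. The fibroblast sum was 9266 to 10625 in SOD1 gastrocnemius, 7704 to 9972 in crush replicates 1 to 3 and 5789 in crush replicate 4, and 6568 to 10085 in NTg gastrocnemius. The endothelial sum was 1430 to 1492 in crush replicates 1 to 3 and 880 in replicate 4, against 1196 to 1520 in NTg gastrocnemius. The smooth muscle and pericyte sum was 2754 to 2917 in crush replicates 1 to 3 and 2099 in replicate 4, against 2523 to 2710 in NTg gastrocnemius. In SOD1 gastrocnemius the endothelial sum was 1224 to 1364 and the smooth muscle and pericyte sum 2621 to 2758. Crush replicate 4, the array with the least Vim of its group, had the lowest of the crush group's sums for fibroblasts, endothelium, and smooth muscle and pericytes. It also had the lowest for Schwann cells and nerve (314, the other crush arrays 419 to 1169) and for adipocytes (1807, the others 2437 to 3002). Its macrophage sum, 1502, lay within the range of the other crush arrays, and its sum for satellite and regenerating cells was the highest. The part of these cell types in the Vim signal was not tested.

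Des did not pass the test in any comparison. Probe set 1426731_at, at the 98.6th percentile of the array by mean signal, read 11.77, 11.71, 11.65 and 11.45 in SOD1 gastrocnemius, 11.70, 11.76, 11.45 and 12.06 after crush, and 11.52, 11.34, 11.62 and 11.62 in NTg gastrocnemius. The 3 groups overlapped, and all 20 arrays lay within 1.02 log2 units. SOD1 over NTg differed by 0.12 (95% interval -0.19 to 0.43, adjusted p = 0.626) and crush over NTg by 0.22 (95% interval -0.09 to 0.53, adjusted p = 0.432), so that a rise beyond 1.35-fold in SOD1 or 1.44-fold after crush lay outside the interval. Without crush replicate 4 the crush difference was 0.11 (adjusted p = 0.714). In triceps it read 11.44, 11.04, 11.48 and 11.19 in SOD1 mice against 11.50, 11.46, 11.80 and 11.20 in NTg mice, a difference of -0.20 (95% interval -0.51 to 0.11, adjusted p = 0.505). With quantile normalization that triceps difference turned to 0.060.

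The second Des probe set, 1426732_at, was dim, at the 34.8th percentile of means, and ranged from 5.26 to 6.93. It differed by -0.26 in SOD1 over NTg gastrocnemius (adjusted p = 0.56; -0.0065 without SOD1 replicate 4), by -0.23 after crush (adjusted p = 0.679) and by -0.39 in SOD1 over NTg triceps (adjusted p = 0.481). Its direction was opposite to that of the bright probe set in both gastrocnemius comparisons, and neither was called. The order of the Des group means therefore depended on the probe set, and all neighbours in either order overlapped.

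Between the muscles of NTg mice, no member passed the test, where 1.71% of all tested probe sets did. Gastrocnemius minus triceps was 0.01 for Krt18 (95% interval -2.22 to 2.23), 0.08 and 0.15 for Lmna, -0.17, 0.04 and -0.18 for Vim and 0.04 and 0.03 for Des, with adjusted p between 0.747 and 0.999. The arrays of the 2 muscles overlapped for all 8 probe sets. The difference of the SOD1 effects between the muscles was likewise not called for any of the 8, and 0% of all tested probe sets were called in it, with 710 at an unadjusted p under 0.05.

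Genes that work with these filaments were taken in lists by role, each gene by its brightest probe set. Of 34 other intermediate filament genes, 6 were on the array and 4 were tested; Krt8 rose in SOD1 gastrocnemius and Sync, Krt5 and Krt10 did not pass the test, with a list median of 0.03. The median change of all tested probe sets there was -0.0015, and 5.97% of them were called higher. Lmnb1, the gene of lamin B1, did not pass the filter.

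Partners of desmin at the Z-disc and at the costamere, the link between Z-discs and the membrane, had 21 tested genes with a median change of 0.12 in SOD1 gastrocnemius. Capn3, a muscle protease, fell by 0.95 (adjusted p = 0.0139) and Ank1, an ankyrin, fell by 0.88 (adjusted p = 0.0125), where 6.02% of all tested probe sets were called lower. None of the 21 was called higher by limma, with 4 higher and 3 lower at an unadjusted p under 0.05. Of all tested probe sets, 29.5% reached that threshold in either direction. Ank1 read 9.82, 9.83, 9.81 and 9.13 in SOD1 gastrocnemius against 10.69, 10.35, 10.42 and 10.62 in NTg gastrocnemius, with no overlap. Neither Capn3 nor Ank1 was called after crush, with changes of -0.80 (adjusted p = 0.0507) and -0.69 (adjusted p = 0.0633). For both, the crush arrays did not overlap the NTg arrays, as for 16.4% of all tested probe sets in either direction. After crush, 1 of the 21, Tln1, was called, a share near the 4.13% of all tested probe sets called in either direction. Tln1 (talin 1, which joins integrins to actin) rose by 0.64 (adjusted p = 0.0175). It read 8.54, 8.61, 8.74 and 8.38 after crush against 8.03, 7.95, 7.99 and 7.74 in NTg gastrocnemius. Tln1 lost its call without NTg gastrocnemius replicate 4 (0.57, adjusted p = 0.0745) and without crush replicate 2 (0.62, adjusted p = 0.0529), and its other probe set differed by 0.27.

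Plakins, large linkers between filament systems, and desmosomal linkers had 4 tested genes. Of these, 1 was called higher in SOD1 gastrocnemius, where 5.97% of all tested probe sets were. Macf1, which crosslinks actin and microtubules, rose by 1.24 in SOD1 gastrocnemius (adjusted p = 0.0184), with 7.64, 8.17, 8.37 and 8.74 in SOD1 against 6.96, 6.85, 7.04 and 7.12 in NTg gastrocnemius. Plec (plectin, which ties desmin to Z-discs and membrane) differed by -0.17 (adjusted p = 0.55). Macf1 lost its call without NTg gastrocnemius replicate 2 (1.19, adjusted p = 0.0503) and without SOD1 gastrocnemius replicate 3 (1.19, adjusted p = 0.051) or 4 (1.07, adjusted p = 0.0808).

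Chaperones that bind or turn over filaments had 11 tested genes with a median change of 0.44 in SOD1 gastrocnemius. Of these, 4 rose, where 5.97% of all tested probe sets were called higher. At an unadjusted limma p under 0.05, 6 were higher and none was lower. Of all tested probe sets, 29.5% reached that threshold in either direction. Hspb8, a small heat shock protein, rose by 1.45 (adjusted p = 0.0184), Hspa1b, an inducible Hsp70, by 1.10 (adjusted p = 0.0276), Cryab (alpha B-crystallin, a desmin chaperone) by 0.58 (adjusted p = 0.0228) and Bag3, the co-chaperone of Hspb8, by 0.55 (adjusted p = 0.0254). Cryab read 11.61, 11.90, 11.88 and 11.83 in SOD1 gastrocnemius, 11.46, 11.53, 11.12 and 11.97 after crush, and 11.21, 11.07, 11.44 and 11.21 in NTg gastrocnemius. Hspb8 read 10.83, 11.64, 11.93 and 11.70 in SOD1 gastrocnemius, 10.15, 10.25, 10.26 and 12.48 after crush, and 9.92, 10.04, 10.05 and 10.29 in NTg gastrocnemius, so that crush replicate 4 alone of the crush arrays reached the SOD1 levels. After crush no chaperone of the list was called by limma. The crush differences were 1.01 (adjusted p = 0.0685) for Hspa1b and 0.50 (adjusted p = 0.0645) for Bag3. They were 0.71 (adjusted p = 0.28) for Hspb8 and 0.29 (adjusted p = 0.294) for Cryab. All crush arrays of Hspa1b and Bag3 lay above all NTg arrays, as for 6.94% of all tested probe sets. Each of the 4 calls in SOD1 gastrocnemius depended on single arrays. Hspb8 lost its call without SOD1 gastrocnemius replicate 2, 3 or 4 (changes 1.31 to 1.41, adjusted p 0.0519 to 0.0682). Hspa1b lost it without SOD1 replicate 3 or 4 or NTg gastrocnemius replicate 2, 3 or 4 (0.93 to 1.12, adjusted p 0.0593 to 0.111). Cryab lost it without SOD1 replicate 2, 3 or 4 or NTg replicate 1, 2 or 4 (0.52 to 0.57, adjusted p 0.0538 to 0.0744), and Bag3 without SOD1 replicate 3 or 4 or NTg replicate 1, 2 or 4 (0.45 to 0.57, adjusted p 0.0502 to 0.106).

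Partners of the lamins at the nuclear envelope had 13 tested genes with a median change of -0.23 in SOD1 gastrocnemius. Of the 13, limma called 1 higher and 1 lower, a share near the 12% of all tested probe sets called in either direction. At an unadjusted limma p under 0.05, 2 were higher and 3 lower, where 29.5% of all tested probe sets reached that threshold. Rb1, the retinoblastoma protein, which lamin A holds in place in the nucleus together with a product of Tmpo, rose by 2.16 (SE 0.39, 4.46-fold, adjusted p = 0.00524). It read 8.23, 8.52, 8.86 and 9.30 in SOD1 gastrocnemius, 6.89, 6.81, 7.65 and 9.31 after crush, and 6.66, 6.56, 6.34 and 6.72 in NTg gastrocnemius, and its call held in all 28 alternatives. Tmpo, which encodes the lamina-associated polypeptide 2 proteins, fell by 0.54 (adjusted p = 0.0181). Emd (emerin) differed by 0.13 (adjusted p = 0.71). Of 4 tested genes of lamin processing, Narf, which binds prelamin A, fell by 0.82 (adjusted p = 0.0136), and Zmpste24, the protease that trims prelamin A, differed by 0.16 (adjusted p = 0.43). In SOD1 gastrocnemius 6.02% of all tested probe sets were called lower. After crush Narf differed by -0.65 (adjusted p = 0.0623) and was not called. Its crush arrays did not overlap the NTg arrays, as for 16.4% of all tested probe sets in either direction.

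Without SOD1 gastrocnemius replicate 4, Rb1 was the only gene of these lists called in SOD1 against NTg gastrocnemius, and 2.37% of all tested probe sets were called. Capn3, Ank1, Tmpo and Narf then changed by -0.91, -0.71, -0.50 and -0.74, with adjusted p between 0.0566 and 0.0728. Tmpo was also lost without NTg gastrocnemius replicate 1 (-0.49, adjusted p = 0.0541) or SOD1 gastrocnemius replicate 2 (-0.53, adjusted p = 0.0502). No gene of these lists was called by limma in triceps, where 8 of 57 tested were higher and 1 lower at an unadjusted p under 0.05, a share near the 15.2% of all tested probe sets, and Rb1 differed by 1.50 (adjusted p = 0.109). Without crush replicate 4, Hspb7, Hspb8 and Rb1 were called in triceps, and 2.22% of all tested probe sets were.

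**Figure D4:**
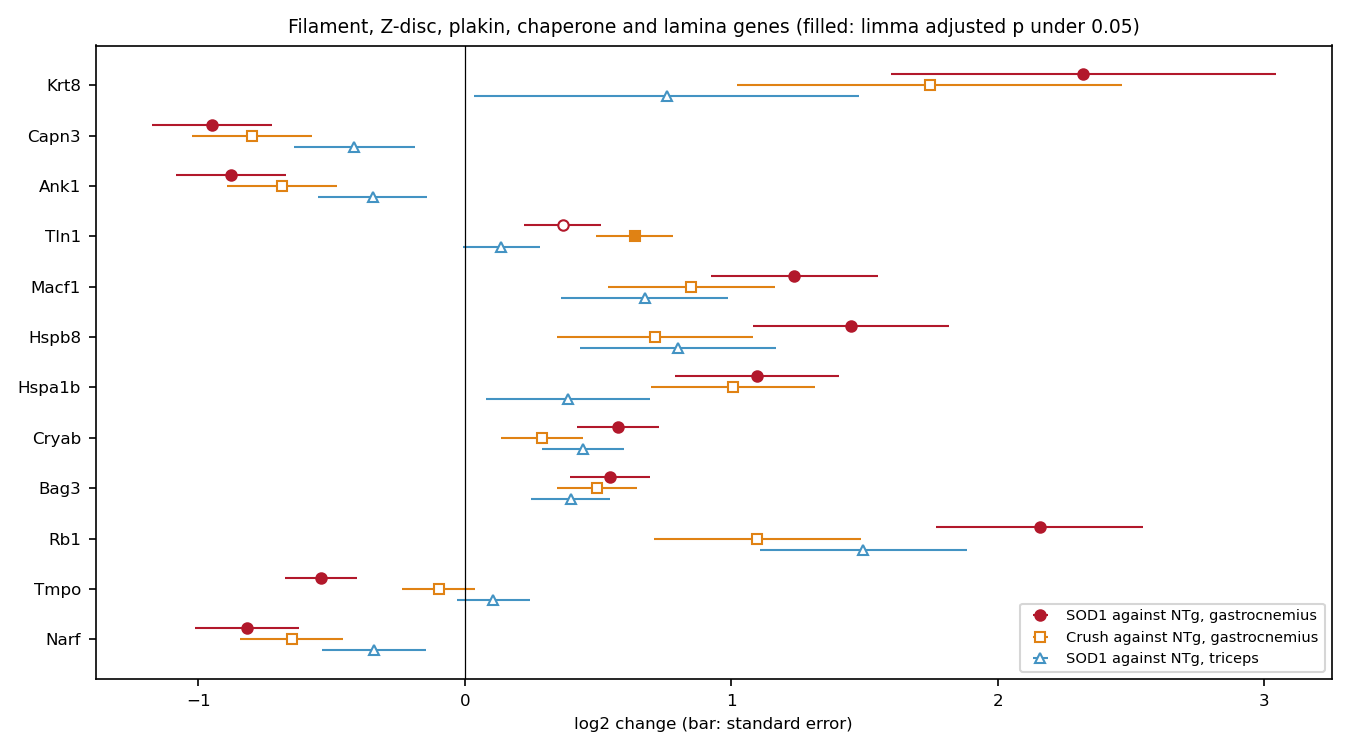
Log2 change with its standard error (horizontal axis) of the named partner genes (vertical axis) for SOD1 against NTg gastrocnemius (circles), crush against NTg gastrocnemius (squares) and SOD1 against NTg triceps (triangles), filled where limma's adjusted p was under 0.05. Krt8 at 2.32 and Rb1 at 2.16 lie farthest right, Capn3, Ank1, Narf and Tmpo lie left of 0 for SOD1 gastrocnemius, and Tln1 is the one gene filled for crush.

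The genes nearest to each member over the 20 arrays were found by the root mean square difference between profiles centred on their own means, among 4760 tested genes. Krt18 was nearest to Ankrd1, a stretch-responsive muscle ankyrin repeat protein, at 1.10 log2 units, then Cpne2 at 1.20 and Aif1l at 1.22, where the Krt18 profile itself had a root mean square of 2.42. Since these genes were chosen for their likeness over the same arrays, their changes are a description: SOD1 over NTg gastrocnemius differed by 3.89 for Ankrd1 and 4.95 for Cpne2, and SOD1 over NTg triceps by 4.78 for Cpne2. The nearest to Lmna 1425472_a_at were Dapk2 (0.21), Cst6 (0.22) and Aopep (0.22), for a profile of 0.63.

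For Vim 1438118_x_at the nearest were Ppa1 (0.19), Bloc1s6 (0.20) and Ptcd3 (0.20), for a profile of 0.32, and Ppa1 differed by 0.46 after crush. For Des 1426731_at they were Fth1 (0.11), Seh1l (0.12) and Rps3a1 (0.13), for a profile of 0.23. Among the members, Lmna was the nearest to Krt18, with 57 other genes nearer, then Vim with 832 and Des with 1734. These distances ran from 1.91 to 2.39, beside 2.42 for the Krt18 profile itself and a median of 2.43 over all genes. The distance is not scaled by spread, and the Krt18 profile was much wider than those of the other members. A large distance to Krt18 therefore reflects that width and cannot show whether the profiles had the same shape. For Lmna, 1218 genes were nearer than Des, 1876 nearer than Vim and 4750 of 4760 nearer than Krt18.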

How the data were processed

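RNA of 20 muscle samples was measured on Affymetrix arrays. The deposited table holds log2 signals of 10748 probe sets; the authors computed them with MAS5, per the submitters' processing notes, where no version, target level or filter was given. No further scaling was applied. The platform annotation gave 1 symbol to 9874 probe sets, several to 387 and none to 487. Positions and promoters came from RefSeq tables (GRCm38.p6). No scan or hybridisation batch was given in the labels, and the number of arrays limits the precision.

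Samples were grouped by title. Probe sets with a mean at or below the 30th percentile (5.88) were left out, which left 7523. Using limma 3.58.1 (R 4.3.3), 5 group means were fitted over the 20 arrays (eBayes with a trend, 15 residual degrees of freedom, two-sided), with Benjamini-Hochberg adjustment within each of 6 comparisons. The fit was tested on simulated data. Figures were drawn with matplotlib 3.10.9.

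The text names all probe sets of the 4 members, up to 4 called genes per partner list, or its largest changes where none was called, and the 3 nearest profiles per member, passing over clones and predicted genes. Further list genes given with values, such as Plec, Emd and Zmpste24, were chosen after their values were seen. For a list gene, the brightest of its single-symbol probe sets was used. The members, lists and tests were chosen with earlier results of these data known. As alternatives, arrays were quantile-normalized or centred on their 75th percentile, the filter was dropped or set at 60%, and fits were run with no trend, with array weights, on the compared arrays only, with the replicate number as a block, and without each array in turn. The list counts without crush replicate 4 and without SOD1 gastrocnemius replicate 4, and the changes of named genes without either or without SOD1 triceps replicate 4, were added after seeing the data. The comparisons of SOD1 and of crush with NTg gastrocnemius share the NTg arrays.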

Additional observations from a re-analysis of the deposited data

Results flagged for a closer look

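In 100 sets of 4 arrays (20 probe sets of members and named partner genes, in each of 5 groups), 12 arrays stood apart from the other 3 of their group by Dixon's test, which by chance flags about 1 in 20. Crush replicate 4 was such an array in 5 of them. It was the high one at 11.10 for Krt18 (next 7.01), at 9.17 for Lmna 1421654_a_at (next 7.27), at 9.29 for Krt8 (next 6.49) and at 12.48 for Hspb8 (next 10.26), and the low one at 8.03 for Narf (next 8.68). SOD1 triceps replicate 4 stood apart at 9.11 for Lmna 1421654_a_at (next 7.21). SOD1 triceps replicate 1 was low at 8.02 for Vim 1456292_a_at (next 8.36). SOD1 gastrocnemius replicate 4 was low at 9.13 for Ank1 (next 9.81). In NTg gastrocnemius, replicate 1 was low at 5.94 for Des 1426732_at (next 6.36), and replicate 2 was high at 5.81 for Krt8 (next 5.17). In NTg triceps, replicate 1 was high at 8.24 for Tln1 (next 8.10) and replicate 2 was low at 6.16 for Macf1 (next 7.03).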

How the results depend on the processing

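The 3 probe sets of Krt18 and Lmna called in SOD1 gastrocnemius kept their direction in every alternative run; Krt18 and Krt8 were not tested at the 60% filter, which leaves them out. The count of called members there was 6 on the compared arrays only and 1 to 4 when 1 array was left out, and the count over all probe sets, 902, was 2512 with array weights and 1768 on the compared arrays only, and 178 to 1341 when 1 array was left out. After crush, 1 member was called, against 3 with array weights and 0 with no filter, no trend or the compared arrays only, and 0 to 3 when 1 array was left out; over all probe sets 311 became 1245 with array weights, and 94 to 456 when 1 array was left out. In SOD1 triceps the total of 18 became 9 with quantile normalization, 9 with the 75th percentile subtracted, 7 at the 60% filter and 50 with array weights, and 3 to 167 when 1 array was left out. SOD1 against crush had 0 calls, but 3 members of 1282 probe sets with array weights, and 0 to 1 members of 0 to 604 probe sets when 1 array was left out. For the difference of the SOD1 effects, 0 became 18 with array weights and 0 to 34 when 1 array was left out. Between NTg muscles, 129 became 80 at the 60% filter and 360 with array weights, and 30 to 327 when 1 array was left out. The cause of these shifts was not tested, beyond the fewer probe sets or arrays that the setting itself leaves.

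With the replicate number as a block on the compared arrays, 6 members and 1396 probe sets were called in SOD1 gastrocnemius and 0 members and 128 probe sets after crush. In triceps 16 probe sets were called, between NTg muscles 179, and in the other comparisons 0, with no member. Deviations of same-numbered arrays correlated at -0.17 to 0.03 for SOD1 and NTg gastrocnemius, -0.13 to 0.075 for crush and NTg, 0.038 to 0.16 for SOD1 and NTg triceps, 0.055 to 0.45 for SOD1 and crush, 0.57, -0.10, -0.037 and 0.62 for the SOD1 muscles and -0.087 to 0.24 for the NTg muscles. The labels tie no number to a mouse and in no pair of groups did all 4 pass the limit for pairing, so the numbers were not taken as pairs, although replicates 1 and 4 deviated together in the SOD1 muscles.

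Directions that turned belonged to uncalled values, the largest of them -0.20 for Des 1426731_at in triceps. In triceps, Vim 1438118_x_at was -0.0017 and Vim 1456292_a_at -0.011 with the 75th percentile subtracted, Vim 1456292_a_at was -0.020 and Des 1426731_at 0.060 with quantile normalization. With array weights, Des 1426731_at was 0.00082 for SOD1 against crush and Des 1426732_at -0.0065 between NTg muscles, where Krt18 was -0.14 with quantile normalization. Leaving out 1 array gave, in triceps, -0.036 to 0.18 for Vim 1438118_x_at and -0.14 to 0.23 for Vim 1456292_a_at. For SOD1 against crush it gave -0.33 to 0.032 for Vim 1456292_a_at, -0.20 to 0.0062 for Des 1426731_at and -0.21 to 0.23 for Des 1426732_at, which for the difference of SOD1 effects ran from -0.10 to 0.38. Between NTg muscles it gave -0.13 to 0.18 for Vim 1450641_at, -0.36 to 0.0022 for Vim 1456292_a_at, -0.057 to 0.14 for Des 1426731_at, -0.13 to 0.27 for Des 1426732_at, -0.55 to 0.92 for Krt18 and -0.0099 to 0.19 for Lmna 1425472_a_at.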
